A study of Arabidopsis thaliana with 4 samples.

Results

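Listed regions of differential DNA methylation on the mitochondrial genome, and in the large nuclear copy of mitochondrial DNA on chromosome 2 of Arabidopsis thaliana, are described here by sequence context. Members were all regions of the authors' deposited table that carry the mitochondrial chromosome name, and all regions with a midpoint at chr2:3250465-3509765. This gave 313 of 7023 listed regions, of which 236 were mitochondrial and 77 lay in the copy. Genomic DNA of 14-day-old seedlings was profiled by bisulfite sequencing in Col-0, the wild-type accession, and in ndx1-4, a mutant of NODULIN HOMEOBOX (NDX), a homeobox gene of plants. The ndx1-4 line carries a T-DNA insertion, and each genotype was represented by 2 libraries. No other allele or treatment was named in the labels, and a single mutant line stands for the loss of NDX.

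The methylation level of a region is the mean methylated share of its cytosines, from 0 to 1. The authors deposited 1 mean level per genotype and region, over both libraries, and whether these came from separate plants was not given. Values of single libraries were not used here. The read depth of a region is not known, the levels are given without a spread between libraries, and no test across libraries was made. A region is called hypomethylated where the mean level was lower in ndx1-4 and hypermethylated where it was higher. Every region was selected by the authors as different, so counts of direction describe listed regions, and places below their thresholds are outside the list. The intervals of shares below are 95% Wilson intervals, and those of medians come from the ranked values of the regions. Both treat listed regions as separate draws, although neighbouring regions are not independent, and neither covers the error between libraries or plants.

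In plants, cytosines are methylated in 3 contexts, named CG, CHG and CHH (H stands for any base but G). MET1 maintains CG methylation, CMT3 acts on CHG, and CMT2 and the RNA-directed pathway with DRM2 act on CHH. Plant mitochondrial DNA is generally described as carrying little cytosine methylation. Plant nuclear genomes hold transferred pieces of organelle DNA, and in Arabidopsis a very large mitochondrial piece lies beside the centromere of chromosome 2, in heterochromatin. The real insertion in Col-0 is known to be longer than the assembled one. Because the nuclear and the mitochondrial sequence are nearly identical, short reads from one can be aligned to the other.

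Sequences of the copy are shown first, to show how closely they match the reference mitochondrial genome. They are the regions with the largest absolute area statistic of the authors in each context, from the plus strand of the RefSeq copy of TAIR10.1. Capitals mark cytosines of the named context, with a capital G where the cytosine is on the opposite strand. The CG region chr2:3336865-3337255 is shown by its first 300 bases. These differed at 1 position from the reference mitochondrial genome. The CHG region chr2:3477892-3478164 was identical to its mitochondrial match over all 273 bases. The CHH region chr2:3466661-3466816 had 2 differences in 156 bases.
CG chr2:3336865-3337164: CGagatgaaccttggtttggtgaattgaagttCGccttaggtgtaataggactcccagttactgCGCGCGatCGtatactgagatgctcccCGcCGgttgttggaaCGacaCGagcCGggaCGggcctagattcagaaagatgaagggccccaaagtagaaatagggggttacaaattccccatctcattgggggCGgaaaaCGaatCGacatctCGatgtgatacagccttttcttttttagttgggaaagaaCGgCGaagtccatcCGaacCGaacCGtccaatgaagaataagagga
CHG chr2:3477892-3478164: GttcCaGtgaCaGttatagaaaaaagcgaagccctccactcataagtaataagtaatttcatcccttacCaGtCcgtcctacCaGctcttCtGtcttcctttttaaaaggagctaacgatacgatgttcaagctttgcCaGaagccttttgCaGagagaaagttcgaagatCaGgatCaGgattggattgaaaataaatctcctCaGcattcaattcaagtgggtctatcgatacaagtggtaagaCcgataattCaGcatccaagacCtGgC
CHH chr2:3466661-3466816: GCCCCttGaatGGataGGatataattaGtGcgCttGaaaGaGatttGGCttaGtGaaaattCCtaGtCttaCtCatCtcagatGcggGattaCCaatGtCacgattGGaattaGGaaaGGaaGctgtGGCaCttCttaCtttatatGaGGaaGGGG

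A CHG region of the copy with 2 differences, chr2:3482693-3482890, is shown beside its best match in the reference mitochondrial genome. It is an example of how few letters separate the copy from that reference. Here capitals mark the differing bases, and the mitochondrial sequence is read on its minus strand.
Chromosome 2 copy: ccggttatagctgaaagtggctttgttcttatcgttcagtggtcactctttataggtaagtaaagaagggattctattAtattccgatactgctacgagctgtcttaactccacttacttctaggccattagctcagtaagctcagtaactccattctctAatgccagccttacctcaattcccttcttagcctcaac
Mitochondrial reference: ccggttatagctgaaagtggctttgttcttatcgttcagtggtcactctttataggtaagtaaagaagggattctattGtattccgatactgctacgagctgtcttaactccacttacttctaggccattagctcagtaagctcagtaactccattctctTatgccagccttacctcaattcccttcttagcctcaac

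Over the whole copy, 99.42% of the sequence was aligned to the reference mitochondrial genome, with 191 substitutions or 0.741 per kb. Of these substitutions, 116 exchanged C with T or A with G, a change that bisulfite conversion can also produce in a read, and 75 exchanged other bases. A further 1119 positions of the copy were marked by insertions or deletions, and the window counts below include them. In windows of 120 bp that tile the copy, 1965 of 2160 (91.0%) held no difference from that reference. Windows centred on the listed regions held none in 65 of 77 cases (84.4%). Most short stretches of the copy thus carry no letter that tells them apart from the reference. This holds for the copy as a whole, and the share was not higher at listed regions. How reads that match both places were assigned was not given in the sources used here, and its part in the results below was not tested. The ends of all 77 regions in the copy fell on cytosines of their context in the reference. On the mitochondrial genome, the fit was 0% among CG regions, 2.22% among CHG regions and 5.56% among CHH regions. The mitochondrial sequence behind the deposited table is thus another one, and mitochondrial regions are given by the authors' coordinates only, without annotation. The differences counted above hold for the reference, and how many separate the copy from the authors' mitochondrial sequence is not known.

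Nearly all listed regions of both places were hypomethylated in ndx1-4. On the mitochondrial genome, 99 of 110 CG regions (90.0%, interval 83.0% to 94.3%), 88 of 90 CHG regions (97.8%, 92.3% to 99.4%) and 36 of 36 CHH regions (100%, 90.4% to 100%) had the lower level in the mutant. In the copy, these counts were 43 of 45 in CG (95.6%, 85.2% to 98.8%), 27 of 28 in CHG (96.4%, 82.3% to 99.4%) and 3 of 4 in CHH (75%, 30.1% to 95.4%). Among all listed regions of the table, 45.4% were hypomethylated in the CG context, 68.2% in the CHG context and 58.5% in the CHH context. The intervals of both places overlapped in each context. In CG and CHG they lay above the share of all listed regions in both places, and in CHH this was the case for the mitochondrial genome but not for the copy, which has only 4 CHH regions.

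Chromosome 2 next to the copy gave a nuclear comparison. In the sequence of the same length on each side (259.3 kb per side), 10 of 14 CG regions (71.4%, interval 45.4% to 88.3%), 12 of 12 CHG regions and 47 of 53 CHH regions (88.7%, 77.4% to 94.7%) were hypomethylated. Lower levels in ndx1-4 were therefore also the prevailing direction in the flanks, and the CG intervals of copy and flanks overlapped. The low flank includes short blocks at chr2:3239038-3250670 that were also aligned to the reference mitochondrial genome. Only the parts of the flanks nearest to the copy were searched for such sequence. Their CG regions, with ratios of ndx1-4 to Col-0 of 0.244 and 0.565, and their CHG region, with 0.172, are counted in the flanks here and below. Over all nuclear regions outside the copy, the hypomethylated shares were 42.9% for CG, 63.4% for CHG and 58.1% for CHH. On chromosome 2 outside the copy, flanks included, the counts were 223 of 501 for CG, 132 of 188 for CHG and 393 of 646 for CHH.

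The copy and its flanks differed in which contexts were listed. The copy held 17.4 CG, 10.8 CHG and 1.54 CHH regions per 100 kb, against 2.70, 2.31 and 10.2 in the flanks. CHH regions made up 5.19% of the 77 regions of the copy and 67.1% of the 79 regions of the flanks. On the mitochondrial genome, CHH regions were 15.3% of 236, CHG regions 38.1% and CG regions 46.6%. In its mix of contexts the copy was thus nearer to the mitochondrial genome than to the chromosome around it. Windows at listed CG regions of the copy held a median of 14 CG cytosines, against 8 in windows tiling the copy, and windows at CHG regions held 13.5 CHG cytosines, against 8. Windows at the 4 CHH regions held 39.5 CHH cytosines, against 36.

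Median levels in both genotypes were lower on the mitochondrial genome than in the copy. In CG, the authors' mean levels had a median of 0.229 (Col-0) and 0.136 (ndx1-4) over mitochondrial regions, and 0.454 and 0.281 over regions of the copy. In CHG, the medians were 0.157 and 0.0760 on the mitochondrial genome and 0.250 and 0.131 in the copy. In CHH, they were 0.0450 and 0.0188 on the mitochondrial genome and 0.0748 and 0.0412 over the 4 regions of the copy. Bisulfite conversion rates of the libraries were not used here, and their part in these low CHH levels and differences was not tested. The order of contexts was the same in both places, with CG highest and CHH lowest. The flanks were higher in Col-0, with medians of 0.579 for CG, 0.453 for CHG and 0.117 for CHH.

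The ranges of both places overlapped in Col-0. Mitochondrial CG regions ran from 0.0974 to 0.601, and CG regions of the copy from 0.0587 to 0.717. Mitochondrial CHG regions ran from 0.0615 to 0.351, and CHG regions of the copy from 0.0477 to 0.490. For CHH, the ranges were 0.0279 to 0.113 on the mitochondrial genome and 0.0118 to 0.119 in the copy. The mitochondrial CG region with the highest level, 313629 to 313686 in the authors' coordinates, stood apart from the rest. It held 4 cytosines, with 0.601 in Col-0 and 0.0573 in ndx1-4, and the next highest was 0.490 in Col-0, at 273077 to 273324.

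**Figure D1:**
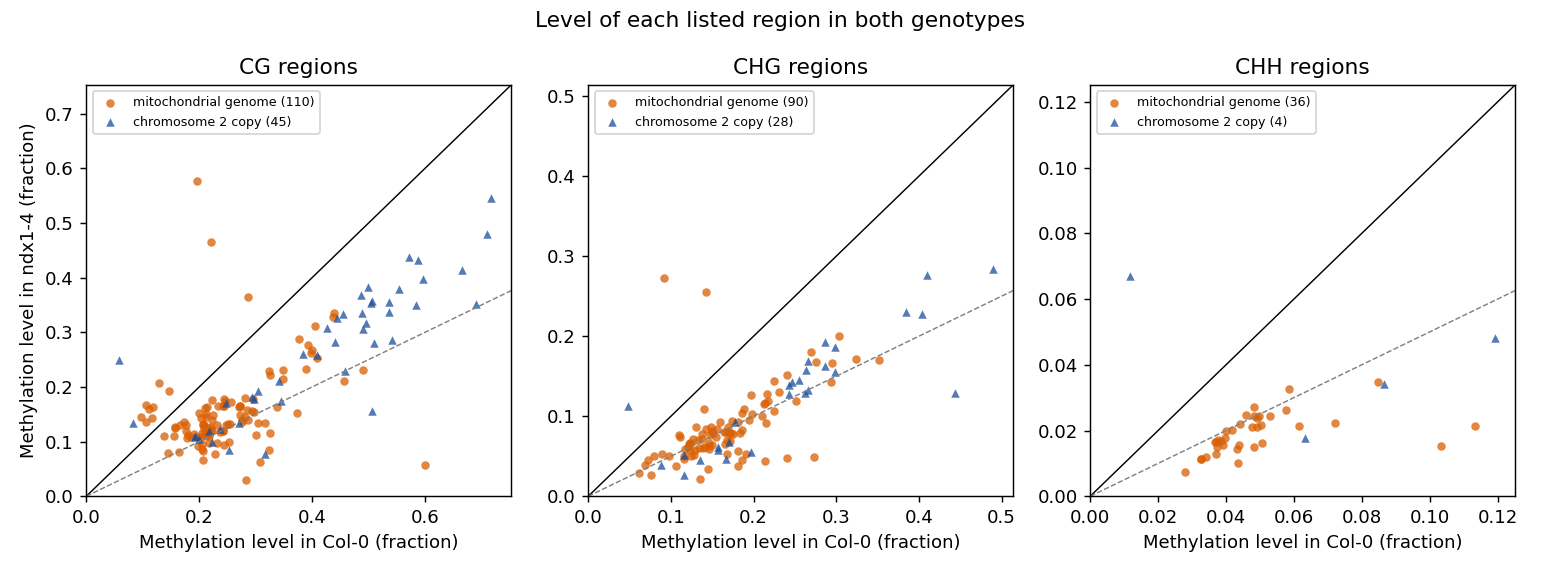
Mean methylation level (fraction, as deposited) of each listed region in Col-0 on the horizontal axis and in ndx1-4 on the vertical axis, for CG, CHG and CHH. Circles are mitochondrial regions and triangles regions of the chromosome 2 copy, the solid line marks equal levels and the dashed line a ratio of 0.5; most points of both places lie below the solid line, and the triangles reach higher Col-0 levels (0.717 in CG, 0.490 in CHG).

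The absolute differences were small. The median difference of ndx1-4 minus Col-0 on the mitochondrial genome was −0.101 in CG (95% interval of the median −0.107 to −0.0889), −0.0816 in CHG (−0.0893 to −0.0731) and −0.0246 in CHH (−0.0286 to −0.0218). In the copy it was −0.150 in CG (−0.172 to −0.122), −0.107 in CHG (−0.132 to −0.0966) and −0.0488 over the 4 CHH regions. In both CG and CHG the median difference was larger in the copy, and whether the places differ was not tested. Among all listed CG regions, 81 had an absolute difference under 0.1, and 51 of these were mitochondrial and 6 were in the copy. In CHG, 84 regions had a difference under 0.1, of which 64 were mitochondrial and 10 in the copy. In CHH, 34 regions had a difference under 0.03, of which 27 were mitochondrial and 0 in the copy. The smallest listed differences of the whole table were thus mostly those of the mitochondrial genome, where the depth of reads per cytosine is not known.

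Relative to the Col-0 level, both places were more alike. In hypomethylated regions the level in ndx1-4 was a median of 0.580 times that in Col-0 for mitochondrial CG (middle 50% of regions 0.491 to 0.678) and 0.629 times for CG in the copy (0.538 to 0.689). In CHG, the median ratio was 0.499 on the mitochondrial genome (0.432 to 0.563) and 0.526 in the copy (0.395 to 0.580). In CHH, it was 0.431 on the mitochondrial genome (0.346 to 0.464) and 0.396 in the 3 hypomethylated regions of the copy. In both places the remaining share of methylation was thus highest in CG and lowest in CHH. The flanks had another order. There the median ratio was 0.198 in the 10 hypomethylated CG regions, 0.425 in CHG and 0.437 in CHH. In 4 of these 10 CG regions of the flanks the ratio was under 0.1, against 1 of 99 mitochondrial regions and 0 of 43 in the copy. Regions were selected by the authors for a difference, so these ratios are descriptions.

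**Figure D2:**
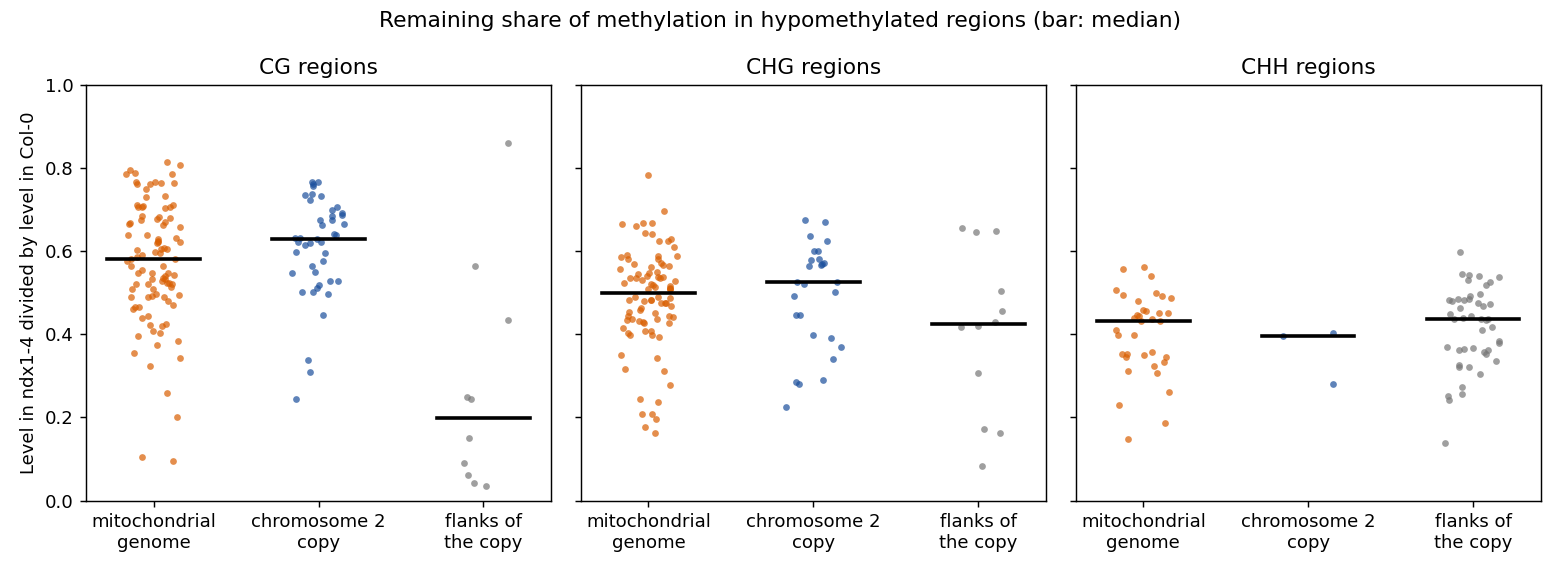
Level in ndx1-4 divided by level in Col-0 (ratio of the authors' mean levels, vertical axis) in each hypomethylated region of the mitochondrial genome, of the chromosome 2 copy and of its flanks, for CG, CHG and CHH. Black bars are medians; in CG they stand at 0.580, 0.629 and 0.198, and in CHG at 0.499, 0.526 and 0.425, and points are spread sideways only to be seen.

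Regions of several contexts often lay on the same stretch. Over all contexts, 94.5% of regions on the mitochondrial genome and 94.8% in the copy were hypomethylated. Most pairs would therefore share a direction wherever they lay. On the mitochondrial genome, 61 pairs of overlapping CG and CHG regions, 27 pairs of CG and CHH regions and 22 pairs of CHG and CHH regions were found, and both members had the same direction in each of them. In the copy, both members of all 18 CG and CHG pairs had the same direction, 17 pairs lower and 1 pair higher in the mutant. There was 1 pair of CHG and CHH regions in the copy and 0 of CG and CHH. Regions of all 3 contexts shared bases at 17 loci of the mitochondrial genome and at 0 of the copy.

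The ratio between contexts at the same stretch was close in both places. In Col-0, CG regions exceeded their overlapping CHG regions in level by a median factor of 1.51 on the mitochondrial genome (lowest 0.995, highest 2.16) and of 1.58 in the copy (1.10 to 2.20). In ndx1-4, these medians were 1.81 (1.08 to 3.54) and 1.86 (1.19 to 3.28). For CHG and CHH, the Col-0 ratio was a median of 4.01 on the mitochondrial genome (2.84 to 5.36) and 4.11 at the single pair of the copy. In ndx1-4 it was 4.63 (1.92 to 6.88) and 5.92. The ratio of CG to CHG was thus higher in the mutant than in Col-0 in both places.

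Listed mitochondrial regions spanned the authors' coordinates 565 to 366879. They formed 144 separate stretches that covered 33822 bp, with a median gap of 608 bp. The spacing was uneven. One gap of 78936 bp ran from 51543 to 130480, a second of 52293 bp from 130880 to 183174, and the next largest, of 13566 bp, from 214434 to 228001. Between 50 and 150 kb there were only 2 CG and 3 CHG regions. CG levels in Col-0 varied along the genome, with a median of 0.207 in 41 regions of the first 50 kb and of 0.343 in 20 regions from 250 to 300 kb, the highest among 50 kb bins. In ndx1-4 the medians of these bins were 0.131 and 0.231. Bins without regions do not show an absence of change, since the coverage there is not known.

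By the authors' area statistic, the leading mitochondrial CG regions lay at 10188 to 11562, at 190521 to 191277 and at 364711 to 365606. The first was also the longest member, with 1375 bp and 155 cytosines, and the authors' mean levels were 0.252 (Col-0) and 0.132 (ndx1-4). The second had 0.231 and 0.0972, and the third 0.217 and 0.110. The leading CHG regions, at 31781 to 32685, 199114 to 199932 and 203413 to 203816, had Col-0 levels of 0.194, 0.184 and 0.225 and ndx1-4 levels of 0.0951, 0.0796 and 0.107. The leading CHH regions, at 198938 to 199895, 190766 to 191264 and 351340 to 351983, had 0.0439, 0.0436 and 0.0417 in Col-0 and 0.0157, 0.0100 and 0.0201 in ndx1-4. These leading regions were thus long regions with many cytosines, and not those with the largest differences in level.

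All 3 contexts met at 190766 to 191264. In Col-0 the level there was 0.231 for CG, 0.190 for the CHG region at 190951 to 191266 and 0.0436 for CHH. In ndx1-4 it was 0.0972, 0.0528 and 0.0100. The remaining share was 0.420 in CG and 0.231 in CHH. Among mitochondrial regions with the lowest ratios were the CG regions at 313629 to 313686 and at 309411 to 309478, with ratios of 0.0953 and 0.106. These held only 4 and 5 cytosines.

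The hypermethylated mitochondrial regions were few, with 11 in CG and 2 in CHG. The CG region at 329454 to 329664 had 0.196 in Col-0 and 0.577 in ndx1-4, and overlapped the CHG region at 329433 to 329493 with 0.0914 and 0.272. The CG region at 235595 to 235705, with 6 cytosines, had 0.220 and 0.465. The CHG region at 340648 to 340705 had 0.142 and 0.255. In the other 9 the difference was between 0.0272 and 0.0794. The 4 regions just named thus differed by more than 0.1, and the rest by less. Among CG regions of this direction, the one with the largest area statistic lay at 20295 to 20438, with 0.105 and 0.137.

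Along the copy, median levels differed between parts. The alignment to the reference mitochondrial genome divided the copy into 5 blocks, each collinear with a stretch of mitochondrial DNA. From the start of the copy, the blocks at chr2:3250465-3322805 and chr2:3322806-3364260 held 24 and 17 regions, and a short block at chr2:3364064-3368146 held 2. The block at chr2:3368548-3489714 held 28 regions and that at chr2:3489261-3509765 held 6. In hypomethylated CG regions the Col-0 median was 0.496, 0.539 and 0.499 in the first 3 blocks, and 0.273 and 0.271 in the other 2. In ndx1-4, the CG medians were 0.318, 0.353 and 0.383 in the first 3 blocks, and 0.115 and 0.135 in the other 2. The third of these blocks had a single CG and a single CHG region, and the last had 3 hypomethylated CG regions and 1 in CHG. The CG ranges overlapped, with 0.248 to 0.717 in Col-0 in the first 3 blocks and 0.193 to 0.409 in the other 2.

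The medians of CHG regions followed the same division. The Col-0 medians of hypomethylated CHG regions were 0.287, 0.263 and 0.266 in the first 3 blocks and 0.167 and 0.157 in the other 2, with ndx1-4 medians of 0.162, 0.156 and 0.169, and of 0.0559 and 0.0614. Their ranges overlapped widely, with 0.243 to 0.443 in the first 3 blocks and 0.0883 to 0.490 in the other 2, and the region with the highest CHG level of the copy lay in the fourth block. The median ratio of ndx1-4 to Col-0 differed as well. In CG it was a median of 0.675, 0.676 and 0.767 in the first 3 blocks and 0.570 and 0.503 in the other 2. In CHG it was 0.566, 0.571 and 0.637, against 0.398 and 0.391. All 4 CHH regions and all 4 hypermethylated regions of the copy lay in the last 2 blocks. The Col-0 medians of these last blocks were nearer to those of the mitochondrial genome, 0.242 in CG and 0.161 in CHG over its hypomethylated regions, than those of the first 3 blocks were. The division was seen in the data and was not tested. Identity to the reference mitochondrial genome was 99.92%, 99.93% and 99.80% in the first 3 blocks and 99.93% in both others. Its relation to the division was not tested.

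**Figure D3:**
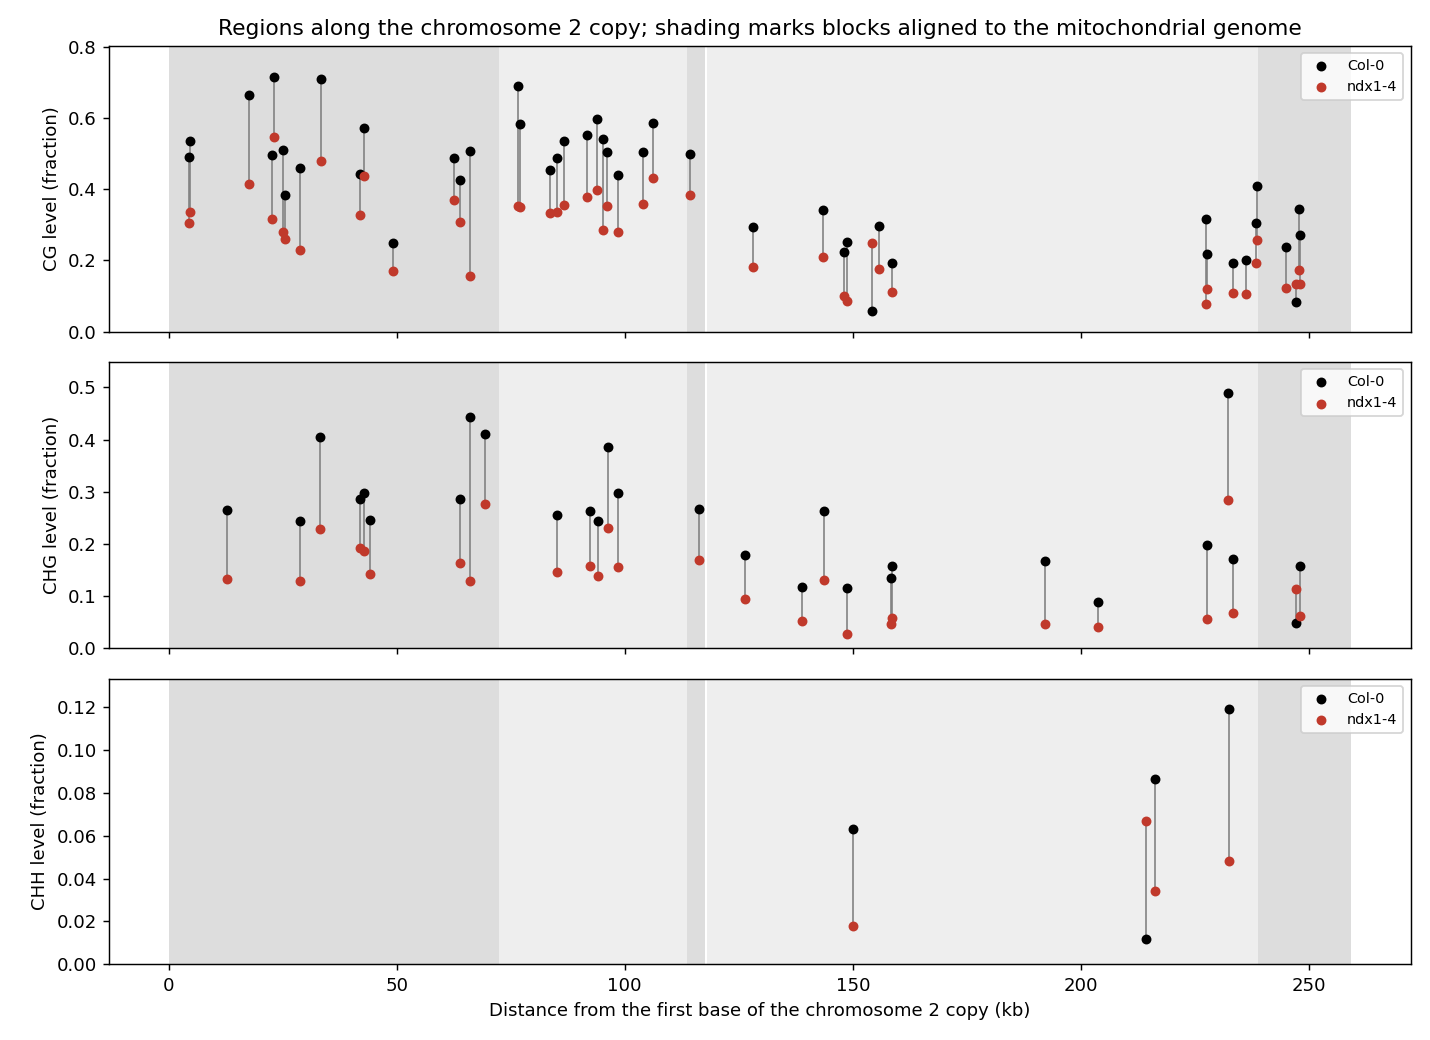
Mean methylation level (fraction) in Col-0 (black) and ndx1-4 (red) of each listed region against its distance from the first base of the chromosome 2 copy (kb), for CG, CHG and CHH, with a line joining both genotypes and shading for the aligned blocks. Col-0 medians of hypomethylated CG regions are 0.496 to 0.539 in the first 3 blocks and 0.273 and 0.271 in the last 2, which hold all 4 CHH and all 4 hypermethylated regions.

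Most regions of the copy overlapped annotated genes or pseudogenes of the nuclear genome, by any number of bases. This was the case for 56 of 77 (72.7%), and such features cover 65.9% of the bases of the copy. A region that only touches a feature is counted, so these shares are unlike measures, and no excess is read from them. Of the 56, 29 overlapped protein-coding gene models, 9 pseudogenes, 11 transcribed pseudogenes, 5 RNA genes and 2 long noncoding RNA genes. Coding sequence was overlapped by 15 regions. Most of the protein-coding models are annotated as uncharacterized proteins and are remnants of mitochondrial sequence, so gene names describe position here and not function.

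The leading CG region of the copy, chr2:3336865-3337255, overlapped the transcribed pseudogene AT2G07811 at chr2:3336879-3337498. It had 58 cytosines, and the level was 0.536 in wild type and 0.356 in the mutant. The CG region chr2:3335453-3335871 overlapped the long noncoding RNA gene AT2G05215 and had 0.488 and 0.336, and the CHG region chr2:3335661-3335803 inside it had 0.254 and 0.145. These stretches matched nad2 of the mitochondrial genome, a subunit gene of NADH dehydrogenase (complex I of the respiratory chain), outside its exons. The CG region chr2:3345400-3345857, the longest of the copy with 458 bp, lay 72 bp from AT2G07695, which is annotated as similar to subunit II of cytochrome c oxidase. Col-0 had 0.542 there and ndx1-4 had 0.286. Inside that gene but outside its coding sequence, the CG region chr2:3346489-3346854 had 0.505 and 0.353, and the CHG region chr2:3346853-3346922 had 0.385 and 0.231.

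Regions whose sequence matched mitochondrial NADH dehydrogenase genes numbered 11, and all were hypomethylated, with a median ratio of 0.493 (0.226 to 0.732). Of all 77 regions of the copy, 94.8% were hypomethylated. Those matching NADH dehydrogenase genes comprised 4 in nad2, 3 in nad5, 3 in nad7 and 1 in nad1. The nad2 regions lay in the second block, with ratios of 0.570 to 0.732. The others lay in the fourth block, where median ratios were lower (0.570 in CG, 0.398 in CHG), so gene group and block were not separated. Exons were reached only in nad7, by 32 and 4 bp. Regions that matched the cytochrome c maturation genes ccmFN2 and ccmFC numbered 2, and 64 matched no named mitochondrial gene. Of these 64, 60 were hypomethylated, with a median ratio over all 64 of 0.598. Mitochondrial features without a gene name were left out of this matching. At ABCI4 (AT2G07681, annotated as a cytochrome c assembly protein), the CG region chr2:3292341-3292446 had 0.444 in Col-0 and 0.327 in ndx1-4, and the CHG region chr2:3292340-3292406 had 0.287 and 0.192. Both lay at the end of the gene model, outside coding sequence. At AT2G07768, with the same product name, the CG region chr2:3273470-3273671 had 0.717 and 0.547, the highest level of both genotypes among CG regions of the copy.

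Pairs of overlapping CG and CHG regions varied within the blocks as well as between them. In the first block, at the transcribed pseudogene AT2G07677, the CG region chr2:3279305-3279389 had 0.459 in Col-0 and 0.230 in ndx1-4, and the CHG region chr2:3279288-3279491 had 0.243 and 0.128. At chr2:3283721-3283898, 168 bp from AT2G07669, the CG level was 0.710 and 0.480, and the overlapping CHG region had 0.404 and 0.228. The first block also held a pair with low ratios. At chr2:3316567-3316653 the CG level was 0.507 and 0.156, a ratio of 0.309, and the CHG region chr2:3316560-3316654 had 0.443 and 0.128, a ratio of 0.290. In the fourth block, the CG region chr2:3393731-3394101 in AT2G07709, which matches nad7, had 0.342 and 0.210, and its CHG partner had 0.263 and 0.130, a Col-0 level close to the CHG median of the second block. Also in the fourth block, the CG region chr2:3399015-3399201 in the transcribed pseudogene AT2G07711, which matches nad5, had 0.252 and 0.0854, and its CHG partner had 0.115 and 0.0261. The leading CHG region chr2:3477892-3478164, in the protein-coding model AT2G07787, had 0.197 and 0.0559, and 150 of its 273 bp were coding. The 2 CG regions that overlap it had 0.317 and 0.0776, and 0.217 and 0.119. In the last block, the CHG region chr2:3498291-3498523 in AT2G07662 had 0.157 and 0.0614.

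The CHH regions of the copy were a mixed set. The leading one, chr2:3466661-3466816, overlapped the transcribed pseudogene AT2G07799 and had 0.0865 in Col-0 and 0.0343 in ndx1-4. The region chr2:3400566-3400679, 51 bp from AT2G07712, had 0.0632 and 0.0177. The region chr2:3482884-3482942 had 0.119 and 0.0481, and overlapped the end of the CHG region printed above with its mitochondrial match, which had 0.490 and 0.284. The fourth, chr2:3464735-3464810, was hypermethylated with 0.0118 and 0.0669. Of the other 3 hypermethylated regions, the CG region chr2:3404585-3404703 at AT2G07643 had 0.0587 and 0.249. The CG region chr2:3497570-3497687 in AT2G07662 had 0.0820 and 0.134, and its overlapping CHG region chr2:3497665-3497758 had 0.0477 and 0.112. All 4 had Col-0 levels below the median of their context in the copy.

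At the low edge, the first member was the CG region chr2:3254840-3254923 in AT2G07779, with 0.490 in Col-0 and 0.305 in ndx1-4. The nearest listed regions outside were the CG region chr2:3244913-3245006, with 0.378 and 0.214, and the CHG region chr2:3241862-3242037, with 0.390 and 0.0673, which overlaps the CG region chr2:3241885-3242005, with 0.559 and 0.137. These lay in sequence that was also aligned to mitochondrial DNA, in short blocks between chr2:3239038-3250670, so mitochondrial sequence reaches past the low edge of the copy as defined here, and these 3 regions are counted among the flanks. The pair overlapped AT2G07773, annotated as a cytochrome b protein. At the high edge, the last member was the CG region chr2:3498514-3498607, with 0.271 and 0.135. The nearest regions outside were the CHH region chr2:3512594-3512965, with 0.102 and 0.0280, and the CG region chr2:3516769-3517004 in ABCC13, a gene of the ABC transporter family, with 0.709 and 0.0428. The CHG region that overlaps it, chr2:3516892-3517025, had 0.233 and 0.0193. In that CG region outside the high edge the mutant thus kept 0.0604 of the Col-0 level, against 0.497 in the last CG region inside. This compares single regions. Further out, the hypomethylated CG regions chr2:3534557-3534706 and chr2:3535528-3535612 had ratios of 0.0356 and 0.435. Hypomethylated CG regions of the copy ran from 0.245 to 0.767.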

How the data were processed

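The deposited table and the 3 lists per context, which hold the same regions, came from bisulfite sequencing of 4 libraries. Bismark and TAIR10 are named in the submitters' processing notes. The region caller, versions and thresholds are not given in the sources used here. The methylation levels are fractions that the authors deposited as 1 mean per genotype and region. The area statistic is a score of the authors, used only to order regions and in 1 alternative. The authors' difference column was not used, and differences were computed from both means. Values of single libraries and read depths were not used.

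Members and lists were chosen with earlier results of these data known. The 3 regions of largest absolute area statistic per place and context, the largest of the rarer direction and those at the edges of the copy were named. Of the overlapping regions of the copy only a part was named. Further hypermethylated or low-ratio regions were named after their values had been seen. Region ends were compared with cytosines of TAIR10.1 (RefSeq). The copy, with a short stretch of chromosome 2 on each side, was aligned to the reference mitochondrial genome with minimap2 2.31-r1302. The rest of chromosome 2, with most of the flanks, was not aligned. Shares have Wilson intervals, and intervals of medians come from order statistics. Scripts (Python 3.11.15, pandas 2.3.3, scipy 1.17.1) were tested on simulated data.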

Additional observations from a re-analysis of the deposited data

How the results depend on the processing

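Shares and median differences were recomputed under 46 alternatives over 12 values. Of these, 37 stayed within the 95% interval of the value reported (for the 4 CHH regions of the copy, the range of their differences) and 0 reversed. For these 4 regions that bar is wide. Some alternatives could not change the value. Keeping only regions wholly inside the copy, or only those in aligned blocks, left the same 45 CG, 28 CHG and 4 CHH regions. The mitochondrial CHH share, 100% of 36 regions, could not move in any selection or weighting of them. With larger differences only (minimum 0.2 for CG, 0.15 for CHG, 0.1 for CHH), the hypomethylated share was 80.0% of 10 mitochondrial CG, 85.7% of 7 mitochondrial CHG, 100% of 9 CG and 100% of 4 CHG regions of the copy, and no CHH region of either place remained. With regions above the median absolute area statistic of their context, it was 94.7% of 75 mitochondrial CG, 100% of 68 mitochondrial CHG and 100% of 1 CHH region of the copy. Weighting by length gave 94.9% in mitochondrial CG. Neighbouring regions of the same context and direction, with gaps up to 1000 bp, were also merged. The share was then 83.6% of 61 mitochondrial CG and 95.8% of 48 mitochondrial CHG stretches. In the copy it was 93.9% of 33 CG and 96.0% of 25 CHG stretches. These stayed within the intervals. With the copy widened by 50 kb on each side, the CHH share was 93.3% and the median CHH difference −0.0728 over 15 regions, and the mean weighted by cytosines over the 4 was −0.0325. The causes were not tested. The smaller share among large mitochondrial differences rests on few regions. No paired analysis was possible because the table used here holds 1 mean level per genotype. For the same reason no library was left out, and the depth, which limits the precision of low CHH levels most, is unknown.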

Other observations

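In the copy, the deposited number of cytosines equalled the number of context cytosines of the reference in 37 of 45 CG regions (82.2%), 26 of 28 CHG regions (92.9%) and 2 of 4 CHH regions. Over the other nuclear regions, the shares were 63.3% for CG, 87.8% for CHG and 82.9% for CHH. Cytosines of the copy were thus not more often left out in CG and CHG than elsewhere. Listed regions of the copy had a median GC content of 47.5% in 120 bp windows, against 44.2% in windows tiling the copy.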
